A study of Mus musculus with 16 samples.

Results

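MHC class I molecules on a cell show peptides cut from that cell's own proteins. The 10 genes described here make that supply: the transporter subunits Tap1 and Tap2 and the bridging chaperone tapasin (Tapbp) load peptide onto class I in the endoplasmic reticulum, Psmb8, Psmb9 and Psmb10 are the catalytic subunits that turn the standard proteasome into the immunoproteasome, Psme1 and Psme2 form its PA28 activator cap, Erap1 trims peptide ends inside the endoplasmic reticulum, and Nlrc5 is a transcriptional coactivator of class I genes. They were chosen by gene symbol for these roles, and all 10 of the 10 symbols were found among the 32285 genes of each of the 8 matrices. Interferon-gamma is the textbook inducer of most of them, and B16 melanoma cells are known for low class I expression that interferon-gamma raises.

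The study crossed the implanted tumour with an antibody. C57BL/6J mice carried subcutaneous B16 tumours grown from 1000000 cells of the Bro4.1 line, either control or B2m-null. B2m makes beta-2 microglobulin, the subunit that every class I heavy chain needs. On days 6, 9 and 12 the animals were injected intraperitoneally with 100 µg of anti-CD40 or of the isotype antibody rat IgG2a, and tumours were harvested on day 14. CD45-positive cells were enriched on magnetic beads, tagged per mouse with hashtag antibodies, pooled by group and profiled with 3' version 3 droplet single-cell RNA sequencing. The 4 groups are named by tumour and antibody (control isotype, B2m-null isotype, control CD40, B2m-null CD40). The sample labels attach the genotype to the mouse, while the series' design text attaches it to the implanted cells, and the design text was followed. Neither the age nor the sex of the mice is given in the sources used here, nor whether the B2m-null cells are a single clone.

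Of 116552 barcodes, 89102 were kept and 66982 of these were placed in 16 cell classes from marker genes, none of which is a member. Hashtags resolved 16 mice, 5 with each tumour under isotype, 2 under CD40 antibody with control tumours and 4 under CD40 antibody with B2m-null tumours. The lanes held 45985739 to 99264875 UMIs (unique molecular identifiers, that is, counted transcripts), with medians of 1715 to 4225 per barcode. Both control CD40 lanes were technical repeats of a single pool, so the pool and the group cannot be told apart there, and mice of the same lane share a library, so p-values measure the spread between these mice only. Pairs of lanes shared at most 92 barcodes. In the first B2m-null isotype pool only 45.7% of barcodes received a hashtag. Levels are given as UMIs of the gene per 1000000 UMIs of that cell class (counts per 1000000, CPM) in each mouse. For melanoma cells, which passed the CD45 beads as carry-over, the lane pool was used instead, because 50.3% of the 1257 melanoma cells had no hashtag (18.0 to 45.5% per lane in control tumours and 65.7 to 84.2% in B2m-null tumours). Hashtag antibodies of this kind bind CD45 and MHC class I. In melanoma cells B2m itself reached 1579 and 1000 CPM with control isotype, 1934 and 2030 CPM in control CD40, 182 and 188 CPM in B2m-null isotype, and 403 and 378 CPM in B2m-null CD40. All 4 B2m-null lanes lay below all 4 control lanes, although a 3' tag can still be read from an edited transcript.

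The genes lie together in part. On GRCm38, with GENCODE gene spans, Psmb9 (chr17:34181987-34187764, minus strand), Tap1 (chr17:34187553-34197225, plus strand), Psmb8 (chr17:34197721-34201454, plus strand) and Tap2 (chr17:34203527-34216321, plus strand) span 34.3 kb of the MHC, and Tapbp lies near them at chr17:33915899-33929292 on the plus strand. Psmb9 and Tap1 stand head to head with RefSeq starts 225 bases apart. Psme1 (chr14:55578123-55581529, plus strand) and Psme2 (chr14:55587441-55591113, minus strand) are neighbours. Psmb10 (chr8:105935735-105938444, minus strand), Nlrc5 (chr8:94434356-94527272, plus strand) and Erap1 (chr13:74639568-74693201, plus strand) stand apart from them.

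Because most members moved together in the tumours described below, their promoters were searched for letters of interferon and class I elements on both strands. RefSeq promoters (GRCm38.p6, 250 bases before to 50 bases after the start) were matched for 8 of the 10 members, without Tap2 and Nlrc5. The interferon-stimulated response element (ISRE, GAAA, any 2 bases, GAAA) was found in Psme1 and Erap1 and in 3.44% of all 32851 promoters. The Y box letters ATTGG were found in Tap1, Tapbp and Psmb9 and in 37.4% of all promoters, while the X2 letters TGACGTCA (1.79% of all) and the kB letters (GGGA, any 4 bases, CC, 20.7%) were in none of the 8. The stretches around each match are shown 5′ to 3′ on the gene's strand with the matched letters in capitals.
Psme1 (ISRE, reverse strand letters, 9 bases after the start, chr14:55578493-55578522): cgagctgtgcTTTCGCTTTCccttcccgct
Erap1 (ISRE, reverse strand letters, 4 bases before the start, chr13:74639839-74639868): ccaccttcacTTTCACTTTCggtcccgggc
Psmb9 (Y box, 8 bases before the start, minus strand, chr17:34187321-34187350): gcgcagccgctgATTGGaaagccgagcccc
Tap1 (the same Y box read from the other strand, 222 bases before the start, chr17:34187322-34187351): gggctcggctttCCAATcagcggctgcgcg
Tapbp (Y box, 165 bases before the start, chr17:33919301-33919330): attaaaatatttATTGGtcacttcacttgg
Tapbp (second Y box, 248 bases before the start, chr17:33919228-33919257): aaATTGGgttgtcatgaaagtgggtggaca
The single Y box between the Psmb9 and Tap1 starts is therefore counted for both genes. A match to these letters is a description of the window and not a mapped binding site.

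Without CD40 antibody, melanoma cells of B2m-null tumours had lower levels of all 10 members than those of control tumours, and CD40 antibody raised 9 of the 10 in B2m-null tumours. Psmb8 was at 164 and 72.0 CPM with control isotype, 159 and 173 CPM in control CD40, 5.07 and 19.4 CPM in B2m-null isotype, and 87.7 and 101 CPM in B2m-null CD40. Psmb9 followed the same order, with 246 and 102 CPM, 281 and 331 CPM, 13.5 and 24.2 CPM, and 125 and 147 CPM in those groups. For both genes the B2m-null isotype lanes were the lowest and did not overlap any other group.

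The transporter subunits behaved alike. Tap1 was at 99.5 and 55.1 CPM in control isotype, 113 and 116 CPM in control CD40, 17.5 and 22.9 CPM in B2m-null isotype, and 83.7 and 69.1 CPM in B2m-null CD40. Tap2 was at 49.1 and 25.3 CPM, 59.9 and 66.9 CPM, 8.0 and 8.8 CPM, and 52.0 and 28.7 CPM. Tapbp, the chaperone that ties class I to the transporter, was at 116 and 77 CPM, 122 and 115 CPM, 31.5 and 24.2 CPM, and 81.0 and 65.4 CPM. The B2m-null isotype lanes were the lowest for each of these, in a comparison in which 1.02% of all genes were called lower.

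Psmb10, the catalytic subunit encoded outside the MHC, was at 158 and 108 CPM in control isotype, 142 and 142 CPM in control CD40, 34.6 and 39.2 CPM in B2m-null isotype, and 99.9 and 119 CPM in B2m-null CD40. Psme1 of the activator cap was at 253 and 172 CPM, 266 and 276 CPM, 69.9 and 76.0 CPM, and 185 and 194 CPM, and Psme2 was at 190 and 124 CPM, 174 and 211 CPM, 40.3 and 43.2 CPM, and 134 and 104 CPM. The coactivator Nlrc5 was at 31.5 and 15.6 CPM, 27.5 and 27.1 CPM, 4.0 and 6.0 CPM, and 25.6 and 25.7 CPM. Erap1 was at 55.2 and 42.3 CPM, 43.4 and 46.9 CPM, 16.5 and 16.3 CPM, and 30.4 and 20.6 CPM.

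**Figure D1:**
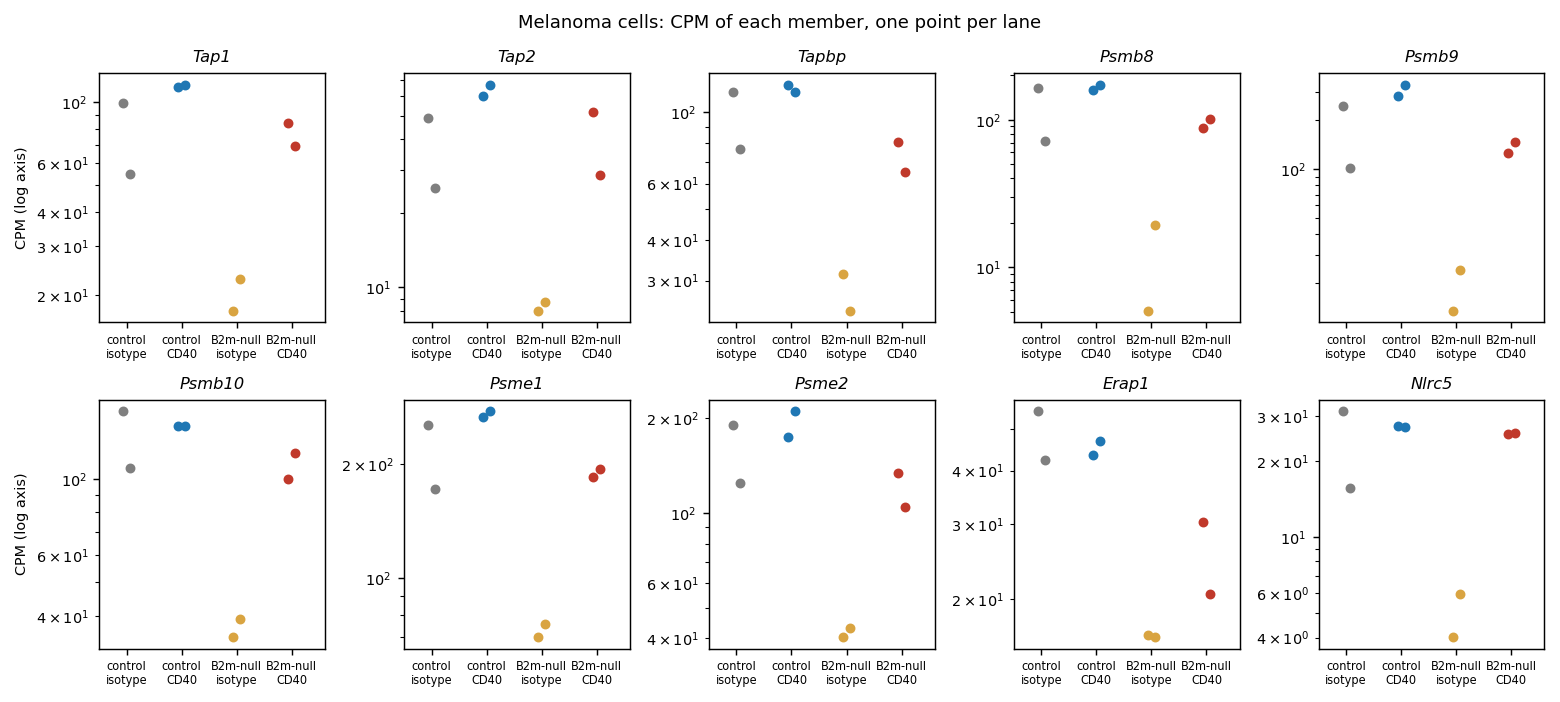
Level of each member in melanoma cells, in CPM on a log axis, with 1 point per lane in the 4 groups; the 2 control CD40 points are technical repeats of a single pool. For Psmb8 the B2m-null isotype points are the lowest, at 5.07 and 19.4 CPM.

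In edgeR's quasi-likelihood test on lane pools (2 control isotype, 1 control CD40, 2 B2m-null isotype, 2 B2m-null CD40), with Benjamini-Hochberg adjustment over 11394 genes, all 10 members were lower in B2m-null than in control melanoma cells under isotype antibody, against 1.02% of all genes called lower. The median log2 difference of the members was -1.91, against 0.0053 over all genes. It was widest for Psmb8 (log2 -3.21 ± 0.43 SE, adjusted p = 0.0011) and Psmb9 (-3.18 ± 0.35, adjusted p = 0.00031) and narrowest for Psme1 (-1.54 ± 0.18, adjusted p = 0.00042) and Erap1 (-1.57 ± 0.20, adjusted p = 0.00095). Counted by hashtag-bearing mice instead of lanes, 0 of the 10 passed and the median was -1.23. Psmb8 was then at -1.33, Psmb9 at -1.65, Psme1 at -0.76 and Nlrc5 at -0.77 (-2.20 by lane pools). Few cells enter that count, as 84.2% and 79.4% of melanoma cells in the B2m-null isotype pools had no hashtag. No leave-out of a single lane took the count below 8, but the Psmb8 value was -2.56 without the first and -4.56 without the second B2m-null isotype pool, and Psmb8 was at -2.50 and Psmb9 at -2.41 without the first control isotype pool.

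CD40 antibody in B2m-null tumours raised 9 members in melanoma cells, against 1.35% of all genes called higher. The median log2 change was 1.85, against -0.011 over all genes. Psmb8 rose 8.02-fold (log2 3.00 ± 0.45, adjusted p = 0.0042), Psmb9 7.70-fold (2.95 ± 0.36, adjusted p = 0.0015), Nlrc5 5.47-fold (2.45 ± 0.37), Tap2 5.19-fold (2.37 ± 0.34) and Tap1 4.05-fold (2.02 ± 0.27). The Psmb8 value rests on few UMIs in B2m-null isotype cells (24 and 111), and was 2.36 without the first and 4.36 without the second of those pools. Erap1 changed by 0.76 ± 0.25 and did not pass (adjusted p = 0.11). A stricter melanoma gate admitted no cell with a Ptprc UMI or with high leukocyte markers, Cd74 included. It also asked for more melanoma marker UMIs and fewer of other classes. With that gate 2 of the 10 passed and the median was 1.45. In control tumours the same antibody gave 0 calls among the members in melanoma cells by edgeR and 0 by DESeq2, where 1.69% of all genes were called. All 10 estimates were positive there, with a median of 0.50, and 5 had an unadjusted p under 0.05.

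The estimated CD40 effect in melanoma cells was larger in B2m-null than in control tumours for all 10 members, with a median difference of 1.35 on the log2 scale against -0.020 over all genes. Unadjusted p was under 0.05 for 10 of 10, but 0 passed the adjusted threshold in edgeR (lowest adjusted p = 0.068, Psmb10) and 2 passed in DESeq2, where edgeR called 0.342% of all genes. The control CD40 side of these tests is 1 pool, whose spread was assumed to be that of the other groups, so they do not measure how that group varies. These comparisons share the control CD40 pool and the isotype lanes. Between the CD40-treated groups, the estimates of all 10 members were lower in B2m-null melanoma cells, with a median log2 difference of -0.70, and 0 passed by edgeR or by DESeq2 (6 with an unadjusted p under 0.05, 0.641% of all genes called).

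Some lists of leukocyte transcripts in the melanoma cells moved with the same groups, and others did not. Summed UMIs of the leukocyte markers Ptprc, Cd52, Laptm5, Coro1a and Cd74 per 10000 UMIs were 5.14 and 3.10 in control isotype, 7.74 in control CD40, 1.66 and 1.62 in B2m-null isotype, and 3.43 and 2.49 in B2m-null CD40. Without Cd74, itself an interferon-gamma target that tumour cells can make, the other 4 stood at 1.39 and 1.12, 1.83, 0.927 and 0.735, and 1.65 and 0.713 in the same order, and the second B2m-null CD40 pool was as low as the B2m-null isotype pools. The 5 macrophage markers C1qa, C1qb, C1qc, Adgre1 and Ms4a7 stood at 1.22 and 1.01, 1.43, 0.587 and 0.768, and 1.09 and 1.04, lowest in B2m-null isotype as the members were, against 65.3 to 92.6 in macrophages. The T cell list stood at 0.0606 and 0.103, 0.274, 0.0338 and 0.0473, and 0.398 and 0.0661, also lowest in B2m-null isotype, and no leukocyte list was at 0 in every pool. The monocyte list went another way, at 0.418 and 0.292, 0.144, 0.323 and 0.245, and 0.216 and 0.103 in the same order. The neutrophil and CD8 T cell lists were lowest in B2m-null isotype. The cDC1, cDC2, mature and plasmacytoid dendritic cell lists were not. Neither were those of CD4 T, regulatory T, gamma-delta T, natural killer, B and mast cells or basophils. The part of these transcripts in the melanoma results was not tested.

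Macrophages, the most numerous class with 35125 cells, repeated the pattern at smaller folds. Psmb8 was at 457, 440, 507, 401 and 384 CPM in the 5 control isotype mice, 353 and 411 CPM in the control CD40 mice, 186, 148, 186, 281 and 197 CPM in the B2m-null isotype mice, and 417, 603, 479 and 518 CPM in the B2m-null CD40 mice. The B2m-null isotype mice lay below every other mouse. Psmb9 was at 390, 323, 329, 268 and 261 CPM, 364 and 408 CPM, 160, 171, 158, 197 and 103 CPM, and 327, 421, 285 and 309 CPM, again with the B2m-null isotype mice lowest.

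Psmb10 in macrophages was at 261, 275, 233, 210 and 196 CPM in control isotype, 223 and 228 CPM in control CD40, 122, 148, 131, 164 and 95.9 CPM in B2m-null isotype, and 269, 351, 222 and 250 CPM in B2m-null CD40. Tap1 was at 234, 219, 187, 181 and 176 CPM, 247 and 218 CPM, 104, 134, 129, 150 and 67.1 CPM, and 229, 275, 164 and 185 CPM. Both genes separated the B2m-null isotype mice from all others. Nlrc5 did so less cleanly, at 49.5, 49.6, 39.4, 31.2 and 41.6 CPM in control isotype and 25.6, 24.4, 24.7, 35.2 and 16.2 CPM in B2m-null isotype, where the groups overlapped. Erap1 did not pass in either comparison of the B2m-null isotype mice, at 58.6 to 70.9 CPM in control isotype, 56.3 and 59.8 CPM in control CD40, 50.4 to 64.9 CPM in B2m-null isotype and 43.3 to 53.3 CPM in B2m-null CD40.

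**Figure D2:**
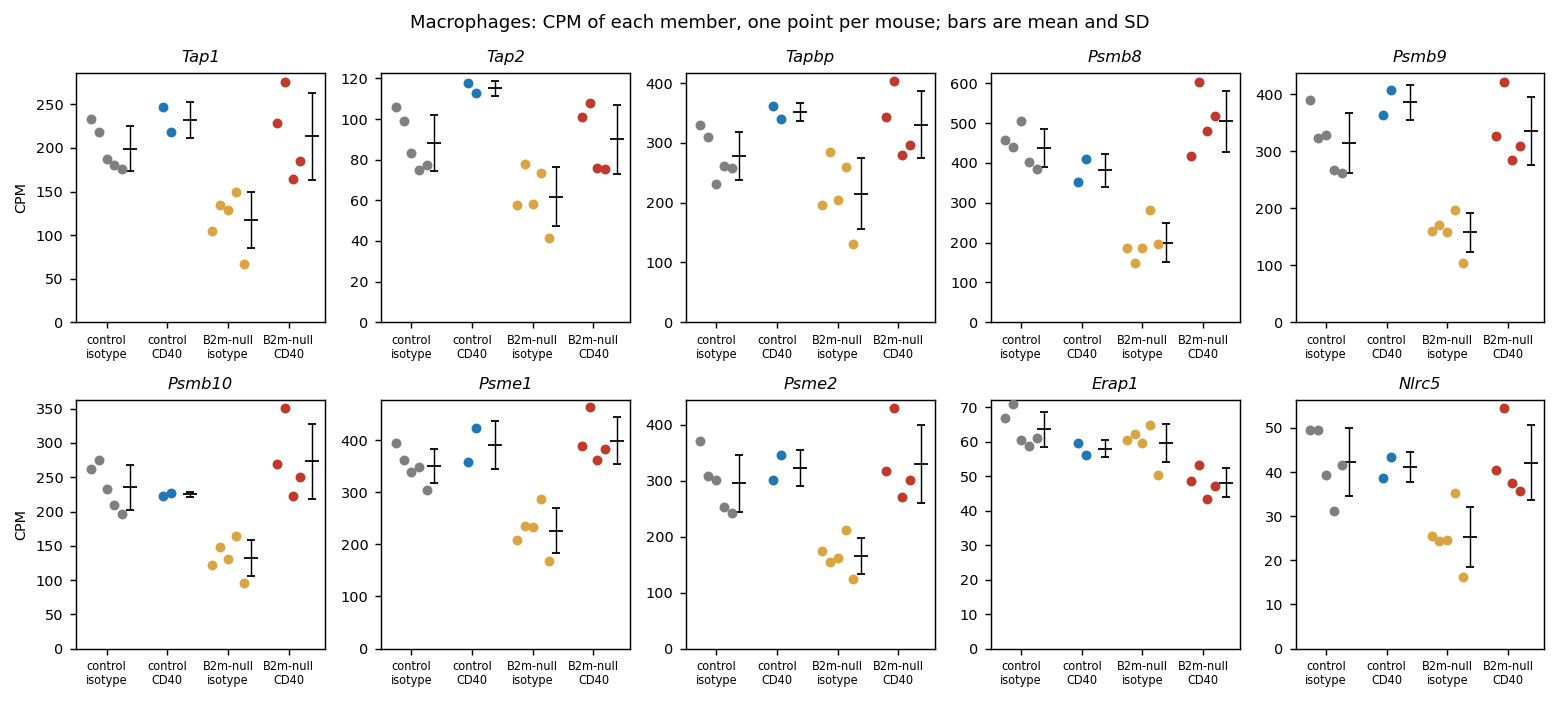
Level of each member in macrophages, in CPM, with 1 point per mouse and the mean and SD of groups of at least 2 mice beside the points. For Psmb8 the B2m-null isotype mice lie between 148 and 281 CPM and the B2m-null CD40 mice between 417 and 603 CPM, while Erap1 stays between 43.3 and 70.9 CPM in all groups.

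By edgeR, 8 members were lower in macrophages of B2m-null than of control isotype tumours, all but Erap1 and Tapbp, against 5.2% of 12317 genes called lower. The median log2 difference was -0.80, with Psmb8 at -1.16 ± 0.15 (adjusted p = 0.0017) and Psmb9 at -1.05 ± 0.16 (adjusted p = 0.0018). Without the first control isotype pool 0 passed and the median was -0.60, and without the first B2m-null isotype pool 1 passed with a median of -0.78. Under CD40 antibody in B2m-null tumours 9 members rose, all but Erap1, against 17.9% of genes called higher. Their median over all 10 was 1.06, with Psmb8 2.88-fold (log2 1.53 ± 0.16, adjusted p = 8.6e-06), Psmb9 2.45-fold (1.29 ± 0.16) and Psmb10 2.39-fold (1.26 ± 0.15). That count was 9 in every leave-out of a lane.

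In macrophages of control tumours CD40 antibody gave 0 calls among the 10 by edgeR and 0 by DESeq2, where 21% of all genes were called, 3 members had an unadjusted p under 0.05, and the median change was 0.28. The CD40 effect was larger in B2m-null tumours for Psmb8 (difference 1.58 ± 0.26, adjusted p = 0.0015), Psmb10 (1.18 ± 0.24), Psme2 (0.92 ± 0.26), Psmb9 (0.86 ± 0.26) and Psme1 (0.72 ± 0.21), against 8.94% of genes called in that direction. The estimates for Nlrc5 (0.81 ± 0.30, adjusted p = 0.067) and Tap1 (0.73 ± 0.30, adjusted p = 0.095) were no smaller than that of Psme1 but did not pass, and neither did Tapbp (0.36 ± 0.27) or Tap2 (0.24 ± 0.25). The count ran from 1 to 7 over the alternatives. On lane sums 1 of the 5 passed, and 2 passed without the first control isotype pool, the first B2m-null isotype pool, the first B2m-null CD40 pool or control CD40 mouse 1, and 3 without B2m-null CD40 mouse 2. Between the 2 CD40-treated groups 0 members passed by edgeR or by DESeq2, with 1 unadjusted p under 0.05 and 11.1% of all genes called.

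Monocytes followed the macrophages. Their gate was the least certain, since only 54.8% of its 7534 cells fell in a monocyte cluster. Psmb8 was at 683, 628, 561, 494 and 590 CPM in control isotype, 461 and 556 CPM in control CD40, 288, 253, 261, 463 and 298 CPM in B2m-null isotype, and 845, 820, 798 and 826 CPM in B2m-null CD40. The B2m-null CD40 mice were above and the B2m-null isotype mice below all control isotype mice. Under isotype antibody 7 members were lower in B2m-null tumours, all but Erap1, Tap2 and Tapbp, against 2.79% of 8427 genes called lower, with a median of -0.77 and the lowest value for Nlrc5 (-1.04 ± 0.22). None of them passed on lane sums or without the first control isotype pool, and 4 passed without the first B2m-null isotype pool.

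CD40 antibody in B2m-null tumours raised 9 members in monocytes, all but Erap1, against 12.5% of genes called higher, with a median of 0.93 and Psmb8 at 1.52 ± 0.15 (adjusted p = 7.9e-07). Over the alternatives that count ran from 6 to 9 and the median from 0.67 to 0.98, and over leave-outs the count also ran from 6 to 9. In control tumours 0 passed by edgeR or by DESeq2, 0 had an unadjusted p under 0.05, and 7.88% of all genes were called. The difference of the CD40 effects passed for 6 members, Psmb8 (1.76 ± 0.25, adjusted p = 0.00013), Psmb10 (1.51 ± 0.25), Psmb9 (1.24 ± 0.25), Psme2 (1.18 ± 0.25), Psme1 (1.00 ± 0.21) and Tapbp (0.83 ± 0.27), against 7.36% of genes called in that direction, and for 2 of them on lane sums. Between CD40-treated tumours Psmb8 (0.82 ± 0.20) and Psmb10 (0.74 ± 0.20) were higher in B2m-null tumours, against 4.75% of genes called higher. That count fell to 0 on lane sums or without either control CD40 mouse, and to 1 with Leiden clusters, the strict gate, cells of at least 1500 UMIs, or without either B2m-null CD40 pool.

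**Figure D3:**
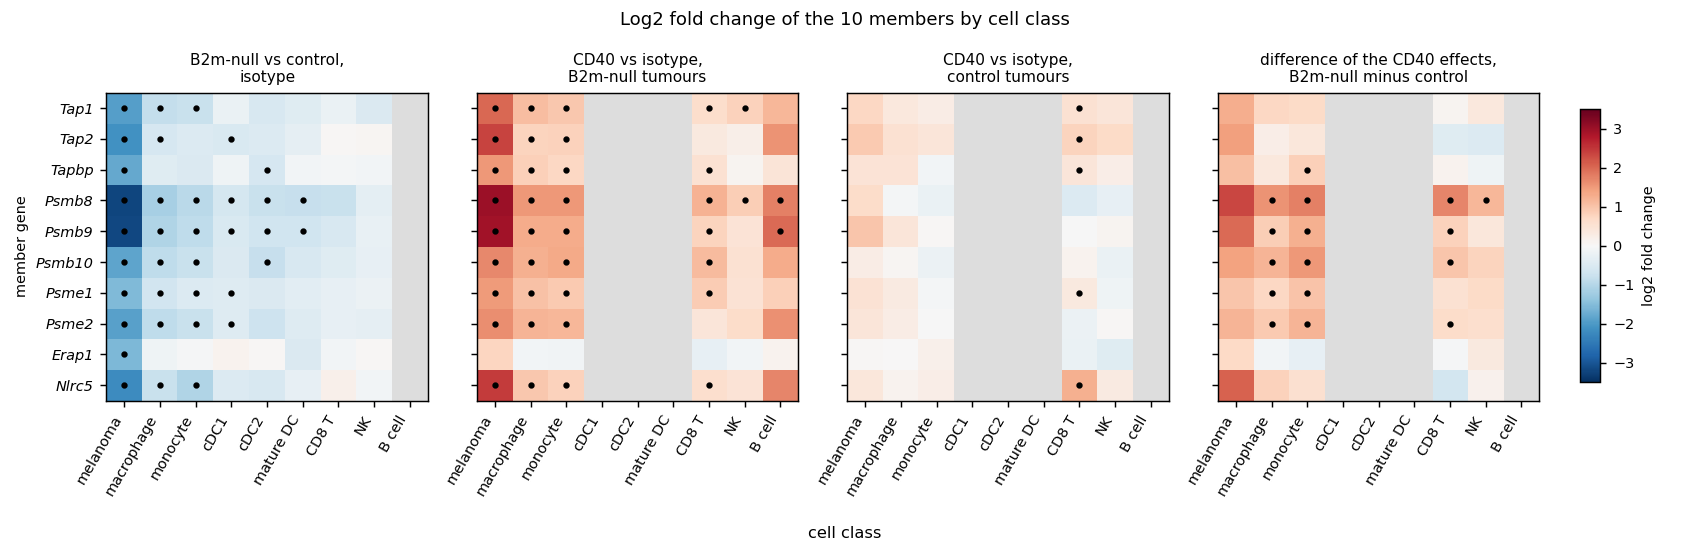
Log2 fold change of the 10 members (rows) by cell class (columns) in 4 comparisons, with a dot where edgeR's adjusted p is under 0.05 and grey where the class or gene could not be tested. The blue column of melanoma cells in the first panel and the red one in the second carry the widest values, -3.21 and 3.00 for Psmb8, and Erap1 stays pale in most classes.

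In CD8 T cells members rose with CD40 antibody in control tumours too. Nlrc5, the class I coactivator, was at 84.0, 87.1, 76.7, 108 and 114 CPM in control isotype and 187 and 245 CPM in control CD40, against 104, 119, 103 and 132 CPM in B2m-null isotype and 144, 133, 159 and 164 CPM in B2m-null CD40. The control CD40 mice were the highest. Tap2 was at 166 to 179 CPM in control isotype and 262 and 307 CPM in control CD40, without overlap. Psmb8 went the other way in control tumours, at 599 to 691 CPM with isotype and 415 and 464 CPM with CD40, but this did not pass (log2 -0.49 ± 0.23).

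In CD8 T cells of control tumours CD40 antibody raised 5 members, Nlrc5 (1.24 ± 0.16, adjusted p = 3.1e-05), Tap2 (0.77 ± 0.13, adjusted p = 0.00018), Tap1 (0.52 ± 0.13), Tapbp (0.41 ± 0.13) and Psme1 (0.35 ± 0.13). The share of all 10010 genes called higher was 17.6%. The count was 2 on lane sums, without the first control isotype pool or without control CD40 mouse 2, and 3 without control isotype mouse 3. In B2m-null tumours 7 members rose, Psmb8 (1.22 ± 0.20, adjusted p = 0.0013), Psmb10 (1.11 ± 0.17), Psme1 (0.88 ± 0.12), Psmb9 (0.78 ± 0.13), Tap1 (0.63 ± 0.13), Nlrc5 (0.59 ± 0.17) and Tapbp (0.52 ± 0.12), against 5% of genes called higher. On lane sums 0 passed, and without the second B2m-null isotype pool 4 passed, with Psmb8 at 1.96.

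The genes for which the 2 CD40 effects differed in CD8 T cells were Psmb8 (1.71 ± 0.31, adjusted p = 0.0029), Psmb10 (0.98 ± 0.24), Psmb9 (0.80 ± 0.19) and Psme2 (0.65 ± 0.20), all larger in B2m-null tumours, against 6.22% of genes called in that direction. On lane sums 0 passed, and 1 passed without either control CD40 mouse or the first control isotype pool. Psmb8 was at 2.47 without the second B2m-null isotype pool. Nlrc5 had a difference of -0.65 ± 0.24 and Tap2 of -0.42 ± 0.18, and neither passed. Under isotype antibody 0 members passed between genotypes in CD8 T cells by edgeR, with 5 at an unadjusted p under 0.05 and 0.43% of all genes called. By DESeq2 2 members passed, and its share of all genes is not given here. Psmb8 in CD8 T cells was higher with B2m-null than with control tumours under CD40 (0.92 ± 0.24, adjusted p = 0.022), against 4.94% of genes called higher, and no longer so on lane sums, without either control CD40 mouse or without the first control isotype pool.

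Natural killer cells are lymphocytes that sense missing class I. Psmb8 was at 487, 452, 429, 320 and 417 CPM in control isotype, 318 and 344 CPM in control CD40, 269, 355 and 358 CPM in B2m-null isotype, and 542, 531, 654 and 549 CPM in B2m-null CD40. CD40 antibody in B2m-null tumours raised Psmb8 (0.87 ± 0.17, adjusted p = 0.0075) and Tap1 (0.80 ± 0.19, adjusted p = 0.023), against 2.25% of 4793 genes called higher. The median over the 10 was 0.49, 9 estimates were positive, and 6 had an unadjusted p under 0.05. Neither call passed on lane sums or in cells of at least 1500 UMIs. In control tumours 0 passed by edgeR or by DESeq2, with 2 at an unadjusted p under 0.05 and 2.94% of all genes called. Under isotype antibody 0 passed between genotypes by edgeR or by DESeq2, with 1 at an unadjusted p under 0.05 and 0.0209% of all genes called. Psmb8 alone passed for the difference of the CD40 effects (1.15 ± 0.25, adjusted p = 0.037, 0.188% of genes called in that direction) and between CD40-treated tumours (0.82 ± 0.19, adjusted p = 0.037, 0.542% called higher), and both calls were lost on lane sums, with the strict gate and without either control CD40 mouse.

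Dendritic cells could be compared under isotype antibody only, because fewer than 2 mice of each CD40-treated group had 20 cells of these classes. In cDC1, the cross-presenting dendritic cells, Psmb9 was at 1338, 1219, 1297, 877 and 1175 CPM in control isotype and 762, 729, 900, 903 and 850 CPM in B2m-null isotype. Psmb8 had a mean of 1185 ± 55.5 CPM (SD, n = 5) in control and 761 ± 241 CPM (SD, n = 5) in B2m-null tumours. The B2m-null values split by pool, at 548, 612 and 600 CPM in the first and 1052 and 993 CPM in the second. The lowest control mouse was at 1111 CPM. The Psmb8 groups did not overlap and the Psmb9 groups did. Lower in B2m-null tumours were Psmb8 (-0.61 ± 0.15), Psmb9 (-0.54 ± 0.12), Tap2 (-0.54 ± 0.13), Psme2 (-0.45 ± 0.12) and Psme1 (-0.44 ± 0.10), that is 5 of 10 in cDC1, against 0.919% of 5985 genes called lower.

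In cDC2 4 members were lower, Psmb10 (-0.82 ± 0.19), Psmb8 (-0.78 ± 0.16), Psmb9 (-0.70 ± 0.16) and Tapbp (-0.60 ± 0.14), against 1.08% of 6006 genes. In mature dendritic cells, which carry antigen to lymph nodes, Psmb8 (-0.80 ± 0.18) and Psmb9 (-0.69 ± 0.14) were lower, against 0.141% of 6376 genes. None of these dendritic cell calls passed on lane sums or without the first control isotype pool, and the counts fell to 1 or 0 without the first B2m-null isotype pool. Over all leave-outs of a lane or mouse the counts ran from 0 to 6 in cDC1, 0 to 6 in cDC2 and 0 to 3 in mature dendritic cells. By edgeR and by DESeq2, 0 members passed between genotypes under isotype antibody in plasmacytoid dendritic cells (0 of 8 with an unadjusted p under 0.05, 0.268% of all genes called) and in regulatory T cells (5 of 10, 0.395% called). In B cells CD40 antibody raised Psmb9 (1.99 ± 0.40) and Psmb8 (1.78 ± 0.31) in B2m-null tumours, against 0.975% of 2872 genes called higher, from 2 isotype and 3 CD40 mice. The B cell count was 0 without either isotype mouse, and 0 to 5 over all leave-outs. Psmb9 there was at 2.68 without B2m-null isotype mouse 5, 1.35 without the first B2m-null CD40 pool and 1.35 with Leiden clusters. Where leaving out a mouse left 1 in its group, as here and for either control CD40 mouse, that mouse was assumed to vary like those of the other groups.

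Between CD40-treated tumours 0 members passed in B cells by edgeR or by DESeq2 (4 with an unadjusted p under 0.05, 0.0696% called). In CD4 T cells 0 members passed for CD40 antibody in control tumours (3 with an unadjusted p under 0.05, 2.09% of all genes called) or between CD40-treated tumours (1 with an unadjusted p under 0.05, 0.376% called), by edgeR or by DESeq2. In neutrophils 6 members were high enough to test and 0 passed in any antibody or genotype comparison by edgeR or by DESeq2. The nearest was CD40 antibody in B2m-null tumours, with 4 of 6 at an unadjusted p under 0.05 and 0.606% of 1156 genes called. In the other neutrophil comparisons, 1 member had an unadjusted p under 0.05 between CD40-treated tumours (0.0865% of genes called) and 0 did for CD40 in control tumours (1.3%), for genotype under isotype (0%) and for the difference of the CD40 effects (0%).

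The ratio of Psmb8 to Psmb9 differed between lane pools in several classes. In macrophages the ratio of UMIs was 1.00 in the control CD40 pool, 1.16 and 1.68 in the first and second B2m-null isotype pools, 1.37 and 1.49 in control isotype, and 1.39 and 1.68 in B2m-null CD40. Median UMIs per macrophage were 3232 in the control CD40 pool, 3226 and 7345 in B2m-null isotype, 3900 and 5014 in control isotype, and 4097 and 7159 in B2m-null CD40. In macrophages the pools with the lowest ratios were those with the fewest UMIs per cell. In monocytes the ratio followed depth in all 7 pools. It ran from 1.22 in the first B2m-null isotype pool (1308 UMIs) to 2.04 in the second B2m-null CD40 pool (4416 UMIs). In CD8 T cells the lowest ratios, 0.746 in the first B2m-null isotype pool and 0.952 in control CD40, were in the shallowest pools (2324 and 1836 UMIs). The higher CD8 T ratios did not follow depth. The highest, 1.72, was in the second B2m-null CD40 pool at a median of 2439 UMIs, while the control isotype pools were deepest (3903 and 4172) at ratios of 1.26 and 1.35. In natural killer cells the shallowest pool with a ratio, the first of control isotype (1053 UMIs), stood at 1.39, and the control CD40 pool (1287 UMIs) at 0.987. The ratio was present in all 7 pools in 6 classes. Of these, control CD40 was the lowest pool in macrophages only. The first B2m-null isotype pool was lowest in monocytes, CD8 T cells, cDC1, mature dendritic cells and melanoma cells. In all 6 the highest ratio was in the second pool of a B2m-null group. The group mean was lowest in control CD40 in 10 of 10 classes with all groups. That group is the same single pool in each class, so the classes are not separate observations of it. Only pools with at least 50 Psmb9 UMIs in a class were given a ratio. The same pools enter the CD40 effects and their difference between genotypes. The part of depth in the Psmb8 results of these comparisons and of those between CD40-treated groups was not tested. Psmb9, its partner subunit, did not pass between CD40-treated groups.

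**Figure D4:**
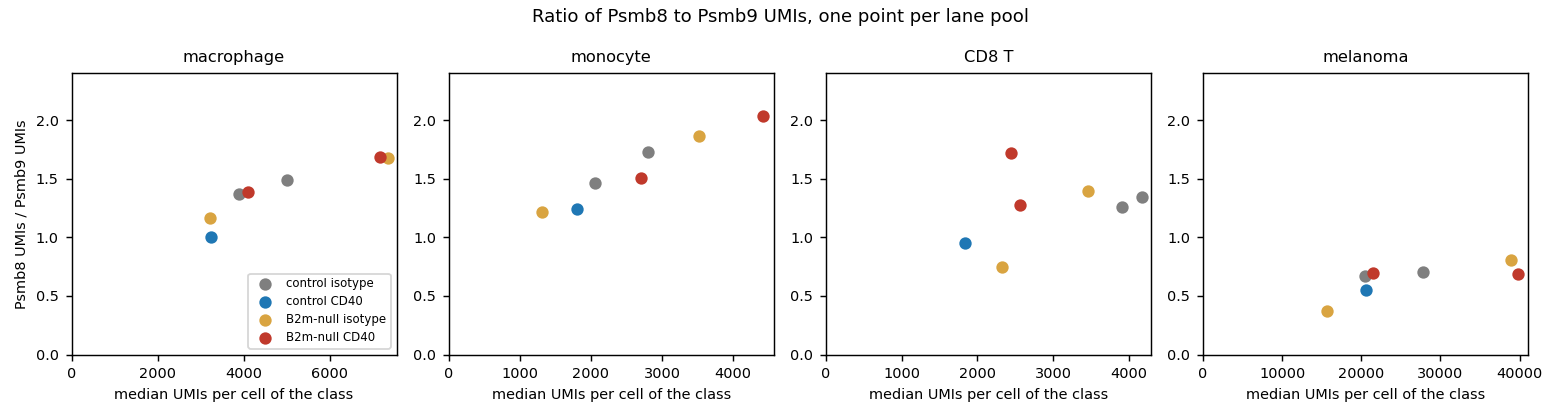
UMIs of Psmb8 divided by UMIs of Psmb9 in 4 cell classes against the median UMIs per cell of the class, with 1 point per lane pool coloured by group. In macrophages the ratio runs from 1.00 in the control CD40 pool to 1.68 in the second pool of each B2m-null group.

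Levels also differed between cell classes within the same tumours. In control isotype pools Psmb8 averaged 1175 CPM in cDC1, 1159 CPM in mature dendritic cells, 773 CPM in cDC2, 692 CPM in regulatory T cells, 627 CPM in CD8 T cells, 585 CPM in monocytes, 438 CPM in macrophages, 431 CPM in natural killer cells, 358 CPM in fibroblasts and 118 CPM in melanoma cells. Psme2 averaged 1026 CPM in mature dendritic cells and no more than 421 CPM elsewhere. Nlrc5 averaged 144 CPM in mature dendritic cells, 105 CPM in CD4 T cells, 96.0 CPM in CD8 T cells, 40.2 CPM in macrophages and 23.6 CPM in melanoma cells. Erap1 was different, with its highest average in CD4 T cells (102 CPM), then regulatory T (95.3 CPM) and CD8 T cells (94.1 CPM), and 35.5 CPM in neutrophils.

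Tested within mice of both isotype groups against macrophages, 9 members were higher in mature dendritic cells, all but Erap1, against 33.1% of 8373 genes called higher. Psme2 (2.15), Nlrc5 (2.07) and Psme1 (1.78) led on the log2 scale. In cDC1 8 were higher (30.7% of genes called higher), led by Psmb9 (2.07) and Tap2 (1.77), in cDC2 9 (27.9%) and in monocytes 9 (28.2%). In plasmacytoid dendritic cells 7 were higher (25.4%) and in regulatory T cells 6 (26.2%). In CD8 T cells 6 were higher (39.5%), led by Nlrc5 (1.27) and Tap2 (1.00), and Psmb10 was lower (-0.25, 37.6% called lower). In CD4 T cells 4 were higher (21.3%), Tap2 (1.28), Nlrc5 (1.06), Tap1 (0.60) and Psmb9 (0.56), and Psmb9 turned to -0.15 with Leiden clusters, where 67.7% of the gated CD4 T cells fell in a matching cluster. In natural killer cells Nlrc5 (1.03) and Tap2 (0.79) were higher (31.4%) and Psme2 (-0.35) lower (35.5%), both smaller shares of the members than of all genes.

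The B cells had Psme2 (-0.90) and Psmb8 (-0.72) below macrophages, against 20% of genes called lower, which is no larger a share than that of all genes, and neutrophils had 6 members below them (27.5%), led by Psme1 (-1.29) and Psmb8 (-1.20). Melanoma cells were below macrophages of the same 7 lane pools in all 10 members, from Psmb8 (log2 -3.04) and Tapbp (-2.58) to Erap1 (-1.42), where 43.7% of 12666 genes were called lower. By hashtag-bearing mice Psmb8 was there at -1.97, Tapbp at -1.98 and Psmb9 at -1.10 (-1.99 by lane pools). Psmb8 was at -3.80 with the strict gate. These melanoma values compare shares of UMIs and not transcripts per cell. Median UMIs per cell in the control isotype pools were 20401 and 27837 in melanoma cells and 3900 and 5014.5 in macrophages. Levels per cell were not tested. With RLE in place of TMM scaling 7 members passed in CD4 T cells, 5 in natural killer cells, 3 in neutrophils and 1 in B cells. The neutrophil count was 3 without control isotype mouse 4 and 2 without mouse 5, and the natural killer cell count was 6 without control isotype mouse 1. With Leiden clusters Psmb8 was at -0.09 in B cells and -0.19 in neutrophils, and Psme1 at -0.06 in neutrophils, and none of these passed. Without B2m-null isotype mouse 4 the neutrophil values of Psmb10, Psme2 and Psmb9 were -1.99, -2.01 and -1.67. Fibroblasts and endothelial cells, also carry-over, were not tested here. Psmb8 was at 423 and 292 CPM in fibroblasts and at 536 and 248 CPM in endothelial cells of the 2 control isotype pools.

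**Figure D5:**
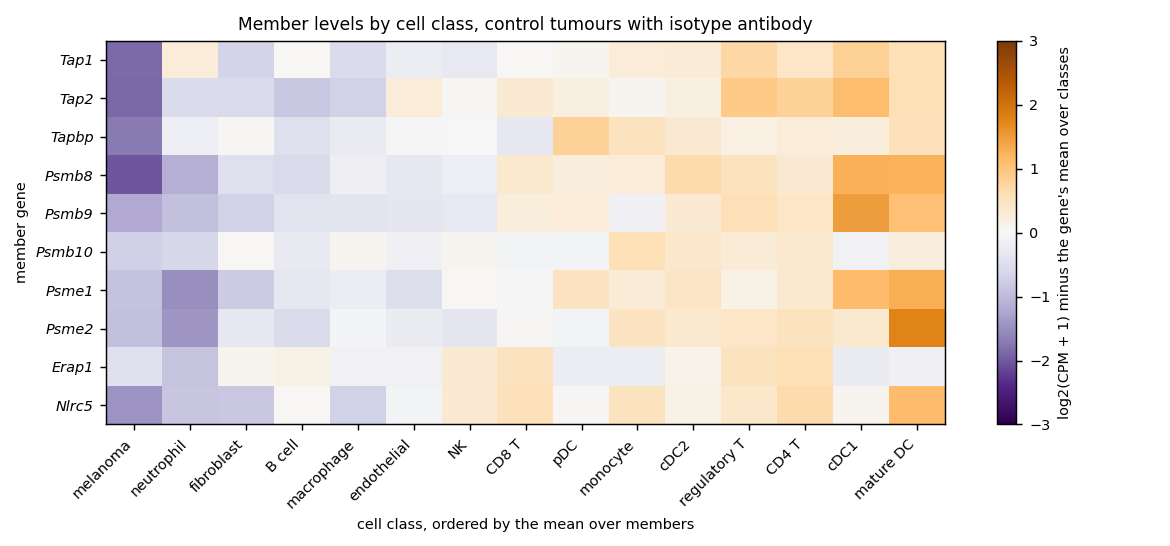
Level of each member (rows) in each cell class (columns, ordered by the mean over members) in control isotype tumours, as log2(CPM + 1) minus the gene's mean over classes. Melanoma cells stand at the low end and mature dendritic cells and cDC1 at the high end, and Erap1 departs from the order of the other members.

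Across 60 means of a class in a group, the 45 pairs of members had a median Pearson r of 0.75 on log2(CPM + 1). Each of the other 9 members correlated with the mean of the rest at 0.77 to 0.95, while Erap1 stood at 0.12. These points share mice, lanes and depth, so the values are descriptions. Of 6566 other genes with a mean of at least 20 CPM, the 5 most like the members' mean were Phf11b (0.84), Sh3bgrl3 (0.80), H2-T23 (0.79), H2-K1 (0.79) and H2-D1 (0.78), and the last 3 are class I heavy chains.

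Other genes of the pathway were taken from a list of 29: class I chains, loading chaperones, standard proteasome subunits, peptidases and interferon signalling. In B2m-null against control melanoma cells under isotype antibody 6 of 28 tested were lower and 0 higher, against 1.02% of all genes called lower. B2m (-2.80), Tapbpl (-2.13), Irf1 (-1.96), H2-D1 (-1.95) and H2-K1 (-1.90) were among them. CD40 antibody in B2m-null tumours raised 6, among them Tapbpl by 2.30, Irf1 by 1.82, H2-D1 by 1.80, H2-K1 by 1.63 and B2m by 1.19, against 1.35% of all genes called higher. In control tumours 0 of 28 passed by edgeR, with 6 at an unadjusted p under 0.05 and 1.69% of all genes called. Irf1 is a transcription factor of the interferon response. Both comparisons use the B2m-null isotype lanes. None of the standard subunits Psmb5, Psmb6 and Psmb7, which the immunoproteasome subunits replace, passed in melanoma cells in these comparisons.

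In macrophages of B2m-null tumours CD40 antibody raised 12 of the 29 and lowered 6, against 17.9% of all genes called higher and 18.2% called lower, so the share that fell was near that of all genes. Ifng (2.17), Irf1 (1.24), Ifnb1 (1.22) and Tapbpl (1.17) were among those that rose, and the standard subunits Psmb5 (0.67), Psmb6 (0.60) and Psmb7 (0.33) also rose, while the chaperones Canx (-0.59) and Hspa5 (-0.44) fell. Ifng is a lymphocyte gene, and its source in the macrophage gate was not tested. In macrophages of control tumours 5 rose and 5 fell (11.3% and 9.65% of all genes), with Ifng at 2.00, B2m at 0.57, H2-K1 at 0.55 and H2-D1 at 0.53 up and Hspa5 (-0.85), Calr (-0.63) and Pdia3 (-0.60) down.

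Monocytes gave 11 of 28 higher and 5 lower with CD40 antibody in B2m-null tumours (12.5% and 9.53% of all genes), with H2-D1 (0.98), H2-K1 (0.95) and B2m (0.82) among those that rose, and 2 higher and 5 lower in control tumours (4.52% and 3.36%). In CD8 T cells of control tumours 12 of 28 rose and 7 fell, against 17.6% and 17.2% of all genes. Irf1 (1.40) and Tapbpl (0.88) were among those that rose, while Psmb5 (-0.81), Psmb6 (-0.77) and Psmb7 (-0.79), with the chaperones Calr (-1.14) and Pdia3 (-1.02), fell. In B2m-null tumours the same cells had 8 that rose and 1 that fell (5% and 2.83%), with Irf1 at 1.06 and H2-D1 at 0.90 among the former. The difference of the CD40 effects in CD8 T cells passed for Psmb5 (1.08), Psmb6 (1.03) and Psmb7 (0.69), so the standard subunits and the immunoproteasome subunits Psmb8, Psmb9 and Psmb10 differed in the same direction there. Under isotype antibody, Irf1 was lower in B2m-null tumours in macrophages (-1.35), monocytes (-1.36), cDC1 (-0.91) and cDC2 (-1.16).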

How the data were processed

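Matrices of UMI counts per gene and cell barcode, with hashtag counts in the same files, were deposited by the authors, who used Cell Ranger 3.0.0, bcl2fastq 2.20.0.422 and build mm10 per the submitters' processing notes. The counts were not normalized. Members and gene lists were chosen with earlier results of these data known, and cut-offs of the marker gates were set after the marker levels had been seen.

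Barcodes were kept if 200 or more genes were detected and no more than 10% of UMIs were mitochondrial. Hashtags were assigned with mixture models (posterior 0.9, at least 20 counts), barcodes with 2 hashtags were removed as doublets, and 5.51% of kept barcodes with markers of several classes were left out. No other doublet caller was run. Raw counts were summed per mouse and class (at least 20 cells), and per lane pool for melanoma cells, with both control CD40 lanes as 1 pool. A comparison needed at least 2 mice per group, except the single control CD40 pool of melanoma cells, which was assumed to vary like the other groups. edgeR 4.0.16 (R 4.3.3; TMM, filterByExpr, glmQLFit, glmQLFTest) was fitted over all groups, with Benjamini-Hochberg adjustment over all genes tested in a class and a threshold of 0.05. Values after ± beside log2 changes are standard errors. The fit was tested on simulated data. All members were named, and other genes came from the pathway list or the 5 most alike.

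Alternatives were DESeq2 1.42.0, RLE scaling, no low-count filter, a stricter gate, Leiden clusters (scanpy 1.11.5), at least 50 cells per mouse, cells with at least 1500 UMIs, lane sums (mouse sums for melanoma cells), a replicate block, and leaving out each lane or mouse. The 5′ ends of transcripts are not read by a 3' assay, and fewer cells of a subtype and less RNA per cell cannot be told apart within a class. No column of sample values was left unused. Some results of the pathway list, the marker lists and the promoter search are not reported here.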

Additional observations from a re-analysis of the deposited data

Results flagged for a closer look

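Single mice stood apart from the others of their group in 10 of 170 groups of 4 or 5 mice, by the gap to the nearest mouse against the range of the group, where chance gives about 5% of groups, so the number is near that share. Lowest in their group were Tapbp in B2m-null isotype mouse 5 in monocytes (218 CPM, nearest 350 CPM) and in CD8 T cells (209 CPM, nearest 259 CPM), Psmb8 in control isotype mouse 4 in mature dendritic cells (919 CPM, nearest 1189 CPM), Psmb10 in B2m-null isotype mouse 1 in CD8 T cells (86.4 CPM, nearest 169 CPM), Psme2 in control isotype mouse 4 in CD8 T cells (272 CPM, nearest 316 CPM) and Nlrc5 in control isotype mouse 4 in monocytes (60.3 CPM, nearest 92.5 CPM). Highest in their group were Psmb8 in B2m-null isotype mouse 4 in monocytes (463 CPM, nearest 298 CPM), Psmb8 in B2m-null CD40 mouse 3 in natural killer cells (654 CPM, nearest 549 CPM), Psme2 in B2m-null CD40 mouse 2 in monocytes (665 CPM, nearest 485 CPM) and Erap1 in B2m-null isotype mouse 3 in CD8 T cells (185 CPM, nearest 87.7 CPM).

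The CD40 effect differed between B2m-null and control tumours, by the interaction term of edgeR, in 16 tests of members, all larger in B2m-null tumours on the log2 scale. In macrophages these were Psmb8 (1.58), Psmb10 (1.18), Psme2 (0.92), Psmb9 (0.86) and Psme1 (0.72). In monocytes they were Psmb8 (1.76), Psmb10 (1.51), Psmb9 (1.24), Psme2 (1.18), Psme1 (1.00) and Tapbp (0.83). In CD8 T cells they were Psmb8 (1.71), Psmb10 (0.98), Psmb9 (0.80) and Psme2 (0.65), and in natural killer cells Psmb8 (1.15). Of all genes, 8.94% in macrophages, 7.36% in monocytes, 6.22% in CD8 T cells and 0.188% in natural killer cells were called in that direction. The control side of each rests on 2 mice of a single pool. The B2m-null isotype mice also enter the CD40 comparison in B2m-null tumours and the genotype comparison under isotype antibody. The calls of these comparisons therefore share those mice.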

How the results depend on the processing

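Over classes, members called were 5 for CD40 with control tumours, 38 for CD40 with B2m-null tumours, 36 (genotype under isotype), 4 (genotype under CD40), 16 (difference of the CD40 effects), 70 (classes against macrophages) and 10 (melanoma cells against macrophages). The shares of all genes called are given with each class above. They were 20 to 39.5% for the classes against macrophages and 43.7% for melanoma cells against macrophages. Lane sums, with mouse sums for melanoma cells, gave 2, 15, 6, 0 and 3 in the first 5, with fewer samples. The 15 leaves out melanoma cells, which held 9 of the 38 and had too few hashtag-bearing cells for mouse sums in that comparison. Without a low-count filter the counts were 9 for CD40 in control tumours, 10 for genotype under CD40 and 26 for the difference. DESeq2 gave 8 and the strict gate 2 for genotype under CD40. Leaving out a lane or mouse gave 2 to 8, 10 to 43 (genotype under isotype), 0 to 7 (genotype under CD40) and 7 to 24 (difference). The lowest, 10, was without the first control isotype pool, and 14 were called without the first B2m-null isotype pool. On lane sums with the replicate block, 21 passed for genotype under isotype and 34 for CD40 in B2m-null tumours. Numbers were not taken as pairs in the reported fits. In macrophages the deviations of same-numbered pools correlated at 0.046 between the isotype groups and at 0.34 between the B2m-null groups. Between control isotype and B2m-null CD40 the value was 0.28. Of 5567 refits of 179 called tests, 5061 kept the call, 505 lost it and 1 reversed, Psmb9 in CD4 T cells against macrophages (-0.15 with Leiden clusters, 0.56 as reported). In 83 tests every refit kept the call. The causes were not tested.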
